A study of Mus musculus with 2 samples.

Results

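The miRNA families miR-297, miR-466, miR-467 and miR-669 are rodent-specific families whose genes are repeated many times within Sfmbt2, an imprinted gene of mouse chromosome 2. The members were taken by name, as every miRNA probe of the array that carries a name of 1 of the 4 families. This gave 71 of the 1900 miRNA probes, which together carry 80 mature miRNA names. In order to see whether these miRNAs travel in the circulation after limb ischemia, their spots were read in RNA from the plasma extracellular vesicles (EVs) of C57BL/6 and BALB/c mice. The mice were male and 8 weeks old, the left femoral vessels had been ligated, and blood was drawn 24 h later. C57BL/6 mice are known to recover blood flow in this model better than BALB/c mice. Each strain was represented by 1 array and 1 pool of 5 mice. No unligated mice were analysed here, so that the ligation is shared by both pools. The values therefore carry no SD between samples, and the strains could not be tested against each other. In such pools, fewer EVs and less miRNA per EV cannot be told apart.

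Sfmbt2 encodes a Polycomb group protein and is expressed from the paternal allele in extraembryonic tissue. The miRNAs in its intron are processed from hairpins that arose by repeated duplication of a short block of sequence, and are known for their expression in the mouse placenta, where the cluster is needed for normal placental growth. Each hairpin can give a mature miRNA from its 5p and its 3p arm, and the seed, bases 2 to 8 of the mature miRNA, is the part that mainly selects target mRNAs. Some members have been studied outside the placenta. In mouse cells, miR-467 has been described as a repressor of thrombospondin-1, an inhibitor of angiogenesis, and miR-466l as a miRNA that stabilises the mRNA of interleukin-10 in macrophages.

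On the mouse assembly GRCm38.p6 as annotated by RefSeq, all 72 miRNA genes within the bounds of Sfmbt2 belonged to these families. The families had 82 genes in that annotation. The 10 others lay elsewhere, on chromosomes 3, 5, 7, 9, 10, 11 and 13. miR-669 had 29 genes within Sfmbt2, miR-466 had 24, miR-467 had 14 and miR-297 had 5. Some miRNAs have many copies, among them miR-669a with 12 genes, miR-467a with 10 and miR-466b with 8. Matched by letter name, 57 probes named miRNAs with genes only within Sfmbt2, 9 named miRNAs with genes only elsewhere, and 5 named miRNAs with genes in both places. The name of the cluster therefore does not cover 9 of the 71 probes.

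RefSeq mature sequences were at hand for 8 of the 71 probes, all of them miRNAs encoded outside Sfmbt2, and the other 63 are named only. The 8 are printed 5′ to 3′ with the seed in capitals, because 6 of the 8 hold a run of 8 or more bases in which A alternates with C or G with U.
miR-467f: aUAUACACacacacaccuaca
miR-466q: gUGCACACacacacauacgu
miR-466i-3p: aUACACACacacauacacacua
miR-467g: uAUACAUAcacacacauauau
miR-466k: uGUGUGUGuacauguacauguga
miR-669n: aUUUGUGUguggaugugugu
miR-466j: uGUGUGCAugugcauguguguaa
miR-467h: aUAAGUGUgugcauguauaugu
The first 4 hold a run of 8 or more alternating A and C, and miR-466k and miR-669n hold such a run of G and U. The run had 12 bases in miR-467f and miR-466q. Among the 1618 probes of the array with a RefSeq mature sequence, 4 (0.247%) held a run of A and C and 9 (0.556%) a run of G and U. No seed was shared by 2 of the 8 miRNAs. Among the same 1618 probes, the seed of miR-467h, UAAGUGU, was also that of miR-668-5p, and each of the 7 other seeds occurred on 1 probe. The seeds of the 63 other members were not compared, so sharing with them is not known. G and C made up 23.8% of the bases of miR-467g and 38.1% of those of miR-467f, against a median of 52.2% over the 1618 probes.

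None of the 8 sequences lies on chromosome 2. In GRCm38.p6, miR-467f is at chr11:69635419-69635439 on the minus strand, miR-467g at chr5:34732872-34732892 on the minus strand, miR-466i-3p at chr13:17747552-17747573 on the plus strand and miR-466k at chr3:85467396-85467418 on the plus strand.

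Few of the families' miRNAs were detected in the plasma EVs of either strain. A miRNA counted as detected where its spot intensity, the Cy5 fluorescence in arbitrary units, was more than 2 SD above the mean of the empty BLANK spots of the same array (without the highest and lowest 5% of them). This threshold was 105.6 on the C57BL/6 array and 110.5 on the BALB/c array. In the C57BL/6 EVs 8 of the 71 probes (11.3%) were detected, against 33.6% of all 1900 miRNA probes. In the BALB/c EVs 0 of the 71 were detected, against 9.84% of all miRNA probes. Detected in both strains were 0, against 9.37% of all miRNA probes, and only in the C57BL/6 EVs the same 8, against 24.2%. The other 63 probes were below the threshold on both arrays.

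**Figure D1:**
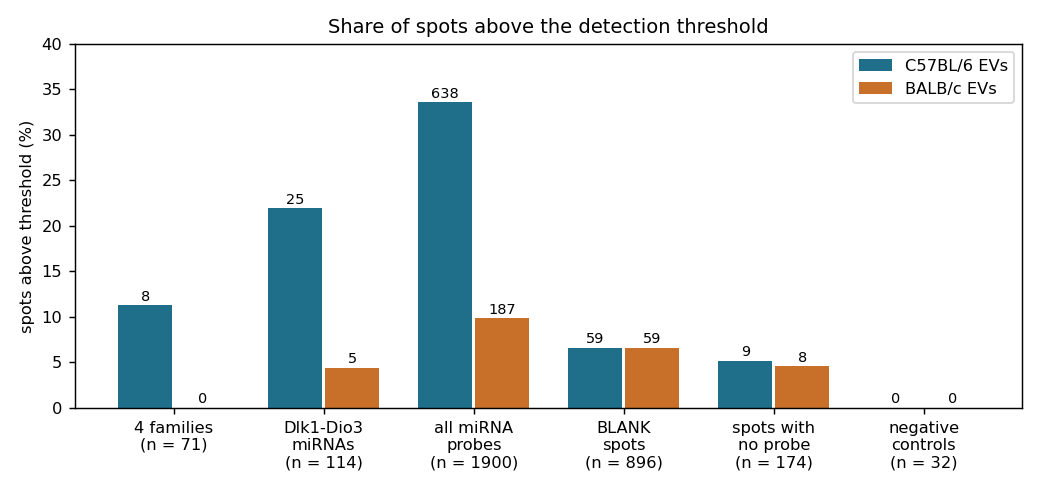
Share of spots above the detection threshold (%, vertical axis) in C57BL/6 and BALB/c EVs for the 4 families, the miRNAs of the Dlk1-Dio3 region, all miRNA probes and 3 kinds of spots without a miRNA probe, with the number of spots above each bar. The families reached 8 of 71 and 0 of 71, between the spots without a miRNA probe and all miRNA probes in C57BL/6, and at the level of the negative controls in BALB/c.

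Spots that carry no miRNA probe give the level at which this threshold is passed without a miRNA. Of 896 BLANK spots, 59 (6.58%) passed it on the C57BL/6 array and likewise 59 on the BALB/c array. The BLANK spots also set the threshold, so their share is partly built in. Of 174 spots with no probe, 9 (5.17%) passed in C57BL/6 and 8 (4.60%) in BALB/c. Of 32 negative control spots, 0 passed on either array. The share of the families in C57BL/6 lay above these shares and below that of all miRNA probes. It rests on few spots, and its distance from the spots without a miRNA probe was not tested.

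The intensities of the 71 probes lay close to those of the empty spots. In the C57BL/6 EVs they ran from 92.4 to 112.3 with a median of 100.1, against a BLANK mean of 98.3 (SD 3.62 over 806 spots). In the BALB/c EVs they ran from 92.1 to 107.0 with a median of 99.4, against a BLANK mean of 102.5 (SD 4.02 over 806 spots). The medians of the negative controls were 98.8 in C57BL/6 and 99.4 in BALB/c, and those of the spots with no probe were 99.6 and 104.1. In BALB/c the members' median thus equalled that of the negative controls to the first decimal. In C57BL/6, 45 of the 71 probes lay above the BLANK mean and 26 below it, whereas in BALB/c 12 lay above it. Of all 1900 miRNA probes, 1331 lay above it in C57BL/6 and 684 in BALB/c, with medians of 101.7 and 100.8. A median close to the empty spots and fewer probes above their mean in BALB/c were thus not particular to the families. The SD across the 71 probes, which is a spread between miRNAs and not between samples, was 4.26 in C57BL/6 and 3.22 in BALB/c.

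**Figure D2:**
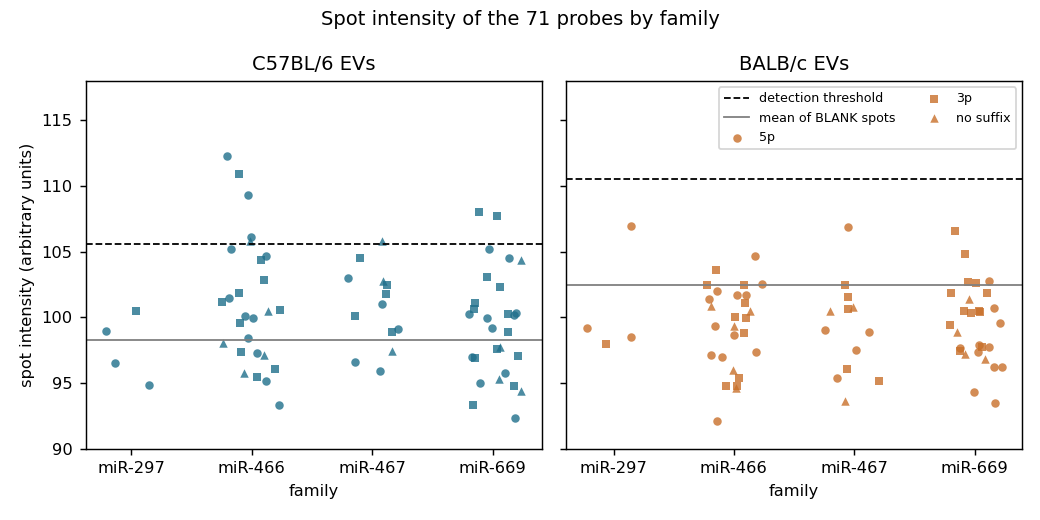
Spot intensity (arbitrary units, vertical axis) of the 71 probes by family in C57BL/6 EVs (left) and BALB/c EVs (right), with the mean of the BLANK spots (line) and the detection threshold (dashed). Symbols mark the arm, and a probe named for miR-466m-5p and miR-669m-5p stands in both families; 8 probes passed 105.6 in C57BL/6 and none passed 110.5 in BALB/c.

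The brightest member in C57BL/6 was miR-466i-5p, whose spot had an intensity of 112.3 there and 101.4 in BALB/c. miR-466h-3p came next with 110.9 in C57BL/6 and 99.98 in BALB/c, then miR-466f-5p with 109.3 and 99.4. These 3 lay 3.86, 3.49 and 3.04 SD above the C57BL/6 BLANK mean and were the members over 3 SD, which is 4.23% of the families against 26.1% of all miRNA probes. Even miR-466i-5p ranked 406 among the 1900 miRNA probes of that array, whose brightest spot had an intensity of 17810. None of the 71 was among the 100 brightest.

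The 5 other detected probes lay between 2 and 3 SD above the BLANK mean. miR-669c-3p had 108.0 in C57BL/6 and 104.8 in BALB/c, and the probe shared by miR-669a-3p and miR-669o-3p had 107.7 and 97.4. miR-466p-5p had 106.1 in C57BL/6 and 102.0 in BALB/c. miR-466f, which is listed without an arm, had 105.8 and 99.3, and miR-467f had 105.8 and 93.6. The last 3 exceeded the threshold by less than 1 unit. Just below it were the probe of miR-466m-5p and miR-669m-5p with 105.2 in C57BL/6, 0.368 under the threshold, and miR-466c-5p with 104.7. The 8 detected probes spanned 6.48 units, less than 2 SD of the BLANK spots (7.24), so that the lowest and the highest of them do not differ beyond that spread.

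In the BALB/c EVs the brightest members were different ones. miR-297a-5p had 99.0 in C57BL/6 and 107.0 in BALB/c, miR-467b-5p had 103.0 and 106.9, and miR-669a-3-3p had 94.8 and 106.6. All 3 were below the BALB/c threshold, at 1.12, 1.09 and 1.03 SD above the BLANK mean, and none of them was detected in C57BL/6. They were the 3 members above the highest negative control of the BALB/c array, while in C57BL/6 the 8 detected ones were above the highest negative control. Across the 71 probes, which share array, labelling and much of their sequence, the intensities of both arrays had a Pearson's r of 0.0789.

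No ratio between the strains could be formed for any member, since none was detected on both arrays. For the 8 members that C57BL/6 alone showed, the C57BL/6 signal was set against 8.08, the lowest signal above background that counted as detected in BALB/c, which gives a lower bound. On the scale of the authors the same was done with their own values, whose lowest in BALB/c was 8.53. After scaling both arrays to the same 75th percentile of the 178 miRNAs detected on both, which divides the C57BL/6 to BALB/c ratio by 5.32, none of the 8 had a bound above 1. On the authors' scale the bound exceeded 1 for all 8, which the detection limits fixed in advance. The lowest authors' value of a detected miRNA was 9.18 in C57BL/6 and 8.53 in BALB/c. Any miRNA detected only in C57BL/6 therefore had a bound above 1 on that scale. The bounds were 2.07-fold for miR-466i-5p, 1.87-fold for miR-466h-3p and 1.11-fold for miR-467f. With the surroundings of the spot subtracted in place of the BLANK mean, and no scaling, the direction turned for miR-466i-5p, with 7.33 in C57BL/6 and 9.02 in BALB/c, and for miR-466p-5p, with 12.7 and 14.5. With the BLANK mean subtracted and no scaling the bound exceeded 1 for 5 of the 8, with 1.73-fold for miR-466i-5p. Noise of single spots is left out of these bounds, and whether any member differed between the strains depends on a scaling that 1 array per strain does not settle. With the C57BL/6 signals divided by 5.32 before detection, 0 of the 71 would have passed the BALB/c threshold. That count follows from the scaled bounds, the highest of which was 0.325. The share of all miRNA probes under this division is not given here, so the count is not particular to the families.

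By family, 5 of 27 miR-466 probes (18.5%) were detected in the C57BL/6 EVs, 2 of 28 miR-669 probes (7.14%), 1 of 13 miR-467 probes (7.69%) and 0 of 4 miR-297 probes. The probe of miR-466m-5p and miR-669m-5p counts in both families. All shares were below the 33.6% of all miRNA probes. The median intensity in C57BL/6 was 100.5 for miR-466, 99.6 for miR-669, 101.0 for miR-467 and 97.7 for miR-297, and in BALB/c it was 99.98, 99.5, 99.0 and 98.8. miR-297 had the lowest median on both arrays. Its 4 probes had 94.9 to 100.5 in C57BL/6 and 98.0 to 107.0 in BALB/c. miR-467 ran from 95.9 to 105.8 in C57BL/6 and from 93.6 to 106.9 in BALB/c, with miR-467f highest in C57BL/6 and lowest in BALB/c. The medians of the families differed by less than 1 SD of the BLANK spots within each array.

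Of the 8 miRNAs whose sequences are printed above, miR-467f was detected in C57BL/6 and the other 7 in neither strain. miR-466q, with the same length of A and C run, had 100.5 in C57BL/6 and 100.9 in BALB/c, and miR-467g had 97.4 and 100.5. The G and U repeats were no brighter, with 97.1 and 94.6 for miR-466k and 97.8 and 96.9 for miR-669n. miR-466j had 98.0 in C57BL/6 and 96.0 in BALB/c, and miR-467h had 102.8 and 100.8. A run of the repeat was thus found both in a detected member and in members at the level of empty spots.

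By arm, 3 of 30 probes of 5p arms, 3 of 29 of 3p arms (10.3%) and 2 of 12 with no arm in the name (16.7%) were detected in C57BL/6. Among the other miRNAs of the array these shares were 35.9%, 32.9% and 34.6%. Within miR-466 the detected arms were mostly 5p, with 3 of 12, against 1 of 10 for 3p. Within miR-669 they were 3p, with 2 of 13, against 0 of 11 for 5p. Of the 33 letter names with a probe for both arms, 3 had the 5p arm alone detected, 4 the 3p arm alone, 0 both and 26 neither. The probe of miR-669a-3p and miR-669o-3p stands for 2 of these 4.

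The largest difference between arms was that of miR-466i, with 112.3 for 5p and 96.1 for 3p in C57BL/6. The 3p arm, whose A and C run is printed above, was thus below the BLANK mean. For miR-669c the arms had 95.7 (5p) and 108.0 (3p), for miR-466h 101.5 and 110.9, and for miR-466f 109.3 and 100.5. Over the 35 pairs of arms, some of which share a probe, Pearson's r between 5p and 3p was 0.129 in C57BL/6.

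**Figure D3:**
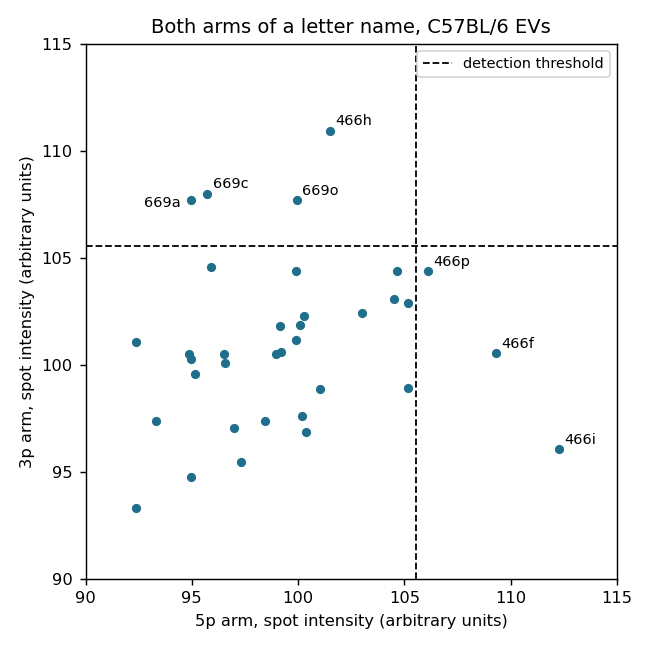
Spot intensity (arbitrary units) of the 3p arm (vertical axis) against the 5p arm (horizontal axis) in C57BL/6 EVs, 1 point for each of 35 pairs of probes, with the detection threshold dashed on both axes. No point lies above the threshold on both axes, and the 7 named points pass it on 1 of them.

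miRNAs with many gene copies were not the brightest members, although the probe of miR-669a-3p and miR-669o-3p, with 13 genes, had 107.7 in C57BL/6. The probe of miR-669a-5p and miR-669p-5p, which stand for 14 genes within Sfmbt2, had 95.0 in C57BL/6 and 97.6 in BALB/c, below the BLANK mean on both arrays. miR-467a has 10 genes, and its 5p arm had 99.1 in C57BL/6 and 97.5 in BALB/c, its 3p arm 101.8 and 95.1. Of the 6 probes for miRNAs with 10 or more genes 1 was detected in C57BL/6, that of miR-669a-3p and miR-669o-3p. Genes were counted by letter name, so the 6 include miR-669a-3-3p, although its name points to the gene Mir669a-3 alone. The counts by gene number and the correlation below rest on that match. Of the 51 probes for miRNAs with 1 gene, 5 were detected. Across the 71 probes Pearson's r between the number of genes and the C57BL/6 intensity was 0.0653. By place, 4 of 57 probes for genes only within Sfmbt2 (7.02%) were detected in C57BL/6, 2 of 9 for genes only elsewhere (22.2%), which were miR-466i-5p and miR-467f, and 2 of 5 for genes in both places, which were miR-466f-5p and miR-466f.

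The 8 detected spots had, in the median, brighter surroundings than the others. The scanner also gives the median intensity around each spot, which in C57BL/6 had a median of 90.9 for the 8 detected members, against 85.2 for the 63 others. For miR-466i-5p it was 104.9, so that this spot was 7.33 above its surroundings, against 9.02 in BALB/c, and for miR-466h-3p it was 99.8 with a difference of 11.1 in C57BL/6 and 7.95 in BALB/c. For miR-669c-3p and for the probe of miR-669a-3p and miR-669o-3p the differences in C57BL/6 were larger, 22.9 and 26.7. Across the 71 probes Pearson's r between spot and surroundings was 0.419 in C57BL/6 and 0.177 in BALB/c. With the surroundings subtracted from all spots, the threshold set in the same way was 31.3 in C57BL/6 and 28.5 in BALB/c, and 0 of the 71 passed it in either strain, against 13.4% and 4.11% of all miRNA probes. The highest difference of a member was 27.8, for miR-669g in C57BL/6. The part of the surroundings in the 8 detections was not tested beyond this.

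**Figure D4:**
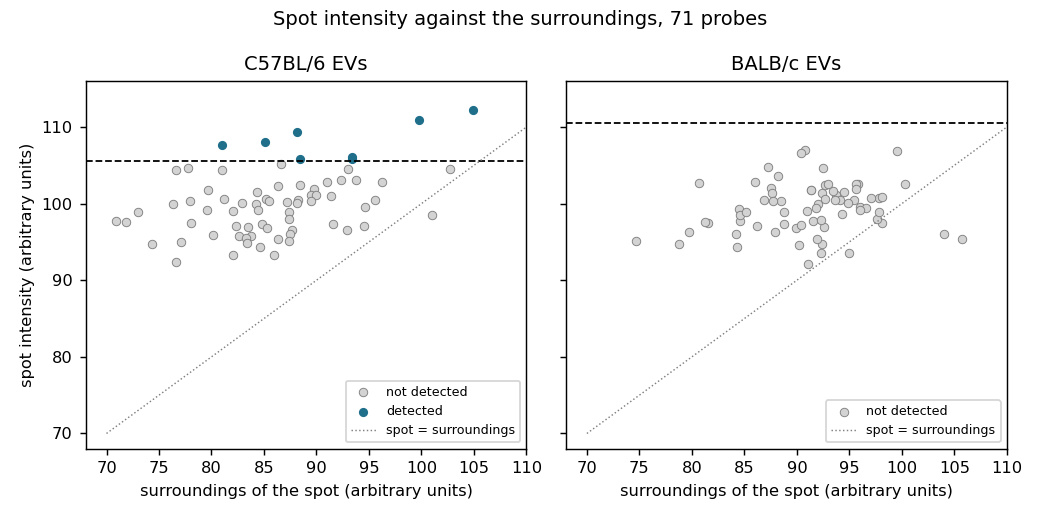
Spot intensity (vertical axis) against the intensity around the same spot (horizontal axis), both in arbitrary units, for the 71 probes in C57BL/6 EVs (left) and BALB/c EVs (right), with the detection threshold dashed and equality dotted. The brightest detected spot, at 112.3, is also the one with the brightest surroundings, at 104.9.

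The imprinted Dlk1-Dio3 region of chromosome 12, the other large imprinted miRNA cluster of the mouse, had 114 probes on the array. Of these, 25 (21.9%, against 33.6% of all miRNA probes) were detected in C57BL/6 and 5 (4.39%, against 9.84%) in BALB/c. In both strains 4 were detected, against 9.37% of all miRNA probes. A share below that of all miRNA probes was thus seen in this region too. Its median intensities, 101.1 in C57BL/6 and 101.4 in BALB/c, were within 1 SD of the BLANK mean, but its brightest member reached 2250 in C57BL/6 and 346 in BALB/c, against 112.3 and 107.0 in the Sfmbt2 families. Outside the families, 7 miRNAs of the array held a run of 8 or more alternating G and U in their RefSeq sequence, and 0 of the 7 were detected in either strain. The brightest in C57BL/6 was miR-574-5p, at chr5:64970328-64970350 on the plus strand, shown because it came nearest to the threshold.
miR-574-5p: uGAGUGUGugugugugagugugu
It had 105.5 in C57BL/6, 1.98 SD above the BLANK mean, and 95.4 in BALB/c. The next were miR-3082-5p with 101.0 and 96.9 and miR-32-3p with 98.8 and 96.4. The dimmest were miR-672-5p with 91.7 in C57BL/6 and 99.4 in BALB/c, miR-6348 with 95.4 and 101.1, and miR-1187 with 97.0 and 96.4. None of the non-members with a RefSeq sequence held such a run of A and C, and the probes without one were not checked.

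The arrays did read blood miRNAs from the same pools. The erythrocyte miRNA miR-451a had 4180 in C57BL/6 and 1603 in BALB/c, and the platelet and leukocyte miRNA miR-223-3p had 204 and 166. All 7 probes looked up for erythrocyte and platelet miRNAs were detected in both strains. To count as detected, a signal had to exceed 2 SD of the BLANK spots, which is 7.24 units in C57BL/6 and 8.04 in BALB/c. The 63 members below it were thus not detectable at this sensitivity, which does not show that they are absent from plasma EVs.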

How the data were processed

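Cy5-labelled RNA of 1 EV pool per strain was hybridised to 3D-Gene miRNA oligo chips. The deposited scanner output gives the median spot intensity at 635 nm and that of the surroundings, without subtraction, for 3200 spots. The labels name cells and another RNA kit than the methods. The table of the authors gives 1 background-subtracted, scaled intensity per detected miRNA, with the steps not given in the sources used here. Its detection calls and those used here differed for 0 miRNAs.

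The 45 highest and 45 lowest of 896 BLANK spots were left out, and a miRNA was detected above their mean plus 2 SD. Lists were described by counts and medians beside all 1900 miRNA probes. Genes were matched by letter name to RefSeq's GRCm38.p6 annotation, while the array files name no genome build. All 71 members may be named, those detected with values. Of other miRNAs, the 3 brightest and 3 dimmest repeat-bearing ones and blood cell miRNAs may be named. The members and lists were chosen with earlier results of these data known. The detection step was tested on simulated data. Scripts ran in Python 3.11.15 (numpy 2.4.6, pandas 2.3.3; figures with matplotlib 3.10.9). Alternatives covered the detection limit, background, author calls and membership.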

Additional observations from a re-analysis of the deposited data

How the results depend on the processing

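The number of members detected in the C57BL/6 EVs, 8, was also the number of those detected only there under each setting. Both were 3 with detection at 3 SD, 4 with BLANK spots not trimmed and 0 with the surroundings of each spot subtracted. Both were 5 with the threshold set from the spots with no probe and 7 with the threshold set from the negative control spots, which were chosen after seeing the data. In the BALB/c EVs the number was 0 under every setting except the threshold from the negative control spots, where it was 3 (miR-297a-5p, miR-467b-5p and miR-669a-3-3p). The table of the authors gave 8 and 0. The 62 members with a gene within Sfmbt2 gave 6 and 0, and the 64 probes with 1 name gave 7 and 0. Under each setting the share of members detected was below that of all miRNA probes, for example 4.23% against 26.1% in C57BL/6 at 3 SD. The number detected in both strains was 0 throughout, so that no median ratio could be computed and the scalings, the spike controls, normexp with quantile normalization and the range for spot noise had no ratio to act on. No paired analysis was possible because each strain has 1 array. The number of arrays and the small distance of the 8 spots from background limit the precision.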
